A study of Mus musculus with 4 samples.

Results

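The comparison described here asks what goes with the AKT-MER retrovirus, and with the fusion protein it encodes, while the protein has no ligand. It sets 1 array of OSKA cells without 4-hydroxytamoxifen (4OHT) against 1 array of OSK cells without 4OHT, which are 2 of the 4 samples in the series and were chosen by their titles. All 4 samples were fibroblasts from male E13.5 mouse embryos with a transgene in which the Oct4 promoter drives EGFP (OE-MEFs). Infection was with retroviruses for Oct4, Sox2 and Klf4 (OSK), or for these factors plus AKT-MER (OSKA), and RNA was taken at 8 days postinfection (dpi). 4OHT or mock treatment, with ethanol as the vehicle, began at 3 dpi, when the infected cells were replated. No empty vector for the OSK cells is named in the sources used here. The fusion protein, the added virus, the culture and the position on the slide therefore cannot be told apart in this comparison. The OSK and OSKA arrays with 4OHT form a second pair that shares no array with the first, and they are given beside it, although per the study's methods the OSKA cells with and without 4OHT were split from one infected population. Each group had 1 array, so no difference here has a replicate check and none was tested. For the OSKA sample given 4OHT, the free text in the labels calls AKT-MER inactive, and its title was followed.

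AKT is a kinase downstream of PI3K that acts in growth, survival and metabolism. In AKT-MER a myristoylated AKT is joined to a modified estrogen receptor, which keeps the kinase inactive until 4OHT binds. Retroviral vectors bring RNA and DNA into the cytosol, where sensors of nucleic acids can induce type I interferons. Interferons signal through JAK kinases and factors that include STAT2 and IRF9, and these factors switch on a large set of antiviral effector genes at promoter elements that hold repeats of GAAA. Fibroblasts use this circuit too, at a low level even when no virus is present.

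Each level below is the log2 intensity minus that of the array's 75th percentile, and a difference is the OSKA level minus the OSK level. Levels are given in the order OSK without 4OHT, OSKA without 4OHT, OSK with 4OHT and OSKA with 4OHT. The share of spots well above background was 53.2%, 55.4%, 52.4% and 53.6% in that order. A difference of 1 gene between 2 arrays had a median error of 0.20 (1.15-fold) by the scanner software, which covers the measurement and not the spread between cultures. Scaling the arrays to probes for RNA added to every sample, in place of the 75th percentile, lowered all differences without 4OHT alike and put the median of all genes at −0.46. Of 24 gene lists with at least 3 measured members and a median difference above 0, this spike-in scaling turned 22 negative, all but the interferon effectors and the macrophage markers. Its value is given beside each of these medians, and single differences smaller than the shift turned too. Fibroblast markers fitted the label, since 13 of 13 were above background on every array, at a median level of 5.96 in OSK and 6.37 in OSKA cells without 4OHT.

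The Esr1 probe on which the check of the labels rests is printed because its letters decide what it can detect. It is 60 bases long and lies at chr10:5489352-5489411 on the minus strand of NCBI37 (mm9), in the coding sequence of the hormone-binding part of the estrogen receptor, which is the part that AKT-MER carries.
Esr1 probe: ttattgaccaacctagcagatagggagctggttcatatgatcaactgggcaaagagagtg

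This probe lay at −5.93, 3.11, −5.69 and 3.32. It was bright on both OSKA arrays and did not clear background on the OSK arrays, and without 4OHT the OSKA level was at least 219-fold above the OSK level. On the log2 scale this bound was 7.78, and it was 5.52 after normexp background correction with quantile normalization. A second Esr1 probe differed by 0.05 without 4OHT, and the other 2 were above background on no array. RNA with the receptor sequence of the fusion was thus found in OSKA cells at a similar level without and with 4OHT.

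The other genes that were carried by a virus or that resemble the transgenes showed no difference of that size. Akt1 lay at 5.91, 5.82, 5.83 and 5.90, and Akt2 at 4.68, 4.50, 4.66 and 4.64. Whether the Akt1, Pou5f1, Klf4 and Sox2 probes cover the parts of the genes carried by the viruses was not analysed here. Pou5f1, which encodes Oct4, lay at 1.81, 1.29, 1.23 and 1.71, so the OSK cells without 4OHT and the OSKA cells with 4OHT were the higher ones. Klf4 lay at 3.43, 3.50, 3.24 and 3.25, and Sox2 was not above background on any array. Slc7a1, the receptor by which ecotropic retroviruses enter mouse cells, lay at 3.26, 3.33, 3.17 and 3.29.

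Of 20161 genes or transcripts above background on both arrays, 220 (1.09%) had an OSKA level at least 2-fold above the OSK level without 4OHT and 187 (0.928%) one at least 2-fold below it. These counts were 42 and 910 under spike-in scaling, and 34 and 40 after normexp background correction with quantile normalization. The median difference of all genes was −0.02, their SD was 0.36, and 47% were higher by any amount. Most of the 2-fold differences were among dim genes. They made up 4.68% of the 2798 genes with a mean level below −3, 3.27% of the 6511 genes between −3 and 0, and 0.581% of the 10852 genes at or above 0, where 33 were higher and 30 lower. Genes that cleared background on only 1 of these arrays gave bounds of 2-fold or more, upwards in 150 and downwards in 233. With 4OHT, 380 of 19826 genes (1.92%) passed 2-fold upwards in OSKA cells, 222 (1.12%) passed it downwards, and 42.9% were higher by any amount.

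**Figure D1:**
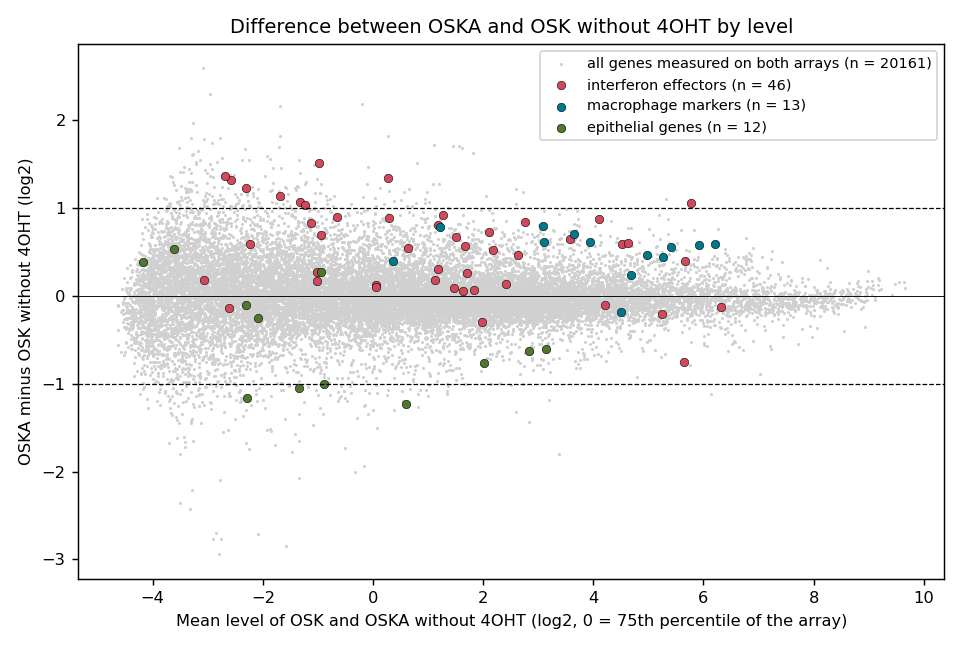
Each point is 1 gene above background on both arrays without 4OHT, with its mean level on the x axis and OSKA minus OSK on the y axis, both on the log2 scale. The dashed lines mark a 2-fold difference, which 220 of 20161 genes passed upwards and 187 downwards. Of the coloured points, 40 of 46 interferon effectors and 12 of 13 macrophage markers lay above 0, against 47% of all genes. Among the epithelial genes 9 of 12 lay below 0.

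The genes that differed without 4OHT were read in the pair with 4OHT as well. Of the 220 higher genes, 214 were measured there, of which 28 (13.1%) again passed 2-fold upwards and 7 passed it downwards. Of the 187 lower genes, 166 were measured, of which 26 (15.7%) again passed 2-fold downwards and 10 passed it upwards. Among the genes with a mean level at or above 0, 3 of 33 higher genes and 5 of 30 lower genes were past 2-fold in the same direction with 4OHT. Of all genes, 1.92% passed 2-fold upwards with 4OHT and 1.12% downwards. The shares that passed it in the opposite direction, 3.27% of the higher genes and 6.02% of the lower genes, were also above these. By any amount, 126 of the 214 higher genes were higher again (background 42.9%) and 104 of the 166 lower genes were lower again (background 57.1%). At a mean level at or above 0 these counts were 22 of 33 and 21 of 30.

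A gene can also be asked to keep both OSKA arrays at least 2-fold above both OSK arrays, or below them. Of 19522 genes measured on all 4 arrays, 8 were above (0.041%) and 11 below (0.0563%). The 8 were Ifit1, Mx1, Rsad2, Scg2, Ifi44, Oasl1, Gm4951 and Gm9706. Ifit1, Mx1, Rsad2, Ifi44 and Oasl1 are effectors of the interferon response, and Scg2 encodes a secretory granule protein. The 11 were Cytl1, Slc6a4, Rnf39, Nxpe2, Lad1, Prm1, A130010J15Rik and 4 transcripts without a gene symbol. Cytl1, which encodes a secreted protein made by cartilage cells, lay at 0.81, −1.13, 0.78 and −4.11. Slc6a4, the serotonin transporter, lay at −0.58, −2.36, −1.08 and −3.44.

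Part of the promoter is shown for some interferon effectors that hold the GAAANNGAAA letters, which interferon-activated factors are known to bind. Not all effectors hold them. The stretches are from RefSeq (GRCm38.p6), 100 bases each, read along the gene and lying within 250 bases before to 50 after its start. Capitals mark GAAANNGAAA on either strand, which reads TTTCNNTTTC on the strand printed.
Ifit1 (chr19:34640759-34640858, plus strand): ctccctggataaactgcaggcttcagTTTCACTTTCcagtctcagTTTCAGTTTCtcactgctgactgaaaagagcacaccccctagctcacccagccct
Ifit3 (chr19:34583362-34583461, plus strand): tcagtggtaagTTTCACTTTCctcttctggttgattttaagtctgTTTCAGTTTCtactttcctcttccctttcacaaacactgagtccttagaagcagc
Rsad2 (chr12:26456518-26456617, minus strand): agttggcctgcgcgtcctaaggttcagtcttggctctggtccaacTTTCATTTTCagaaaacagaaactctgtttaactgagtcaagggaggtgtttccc
Slfn8 (chr11:83020811-83020910, minus strand): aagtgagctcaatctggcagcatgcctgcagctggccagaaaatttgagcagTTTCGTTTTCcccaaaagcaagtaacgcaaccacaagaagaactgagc

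The stretch of Ifit3b equals that of Ifit3, and hybridisation between these near-identical copies was not analysed. Over the 300-base windows, the letters were found in 17 of 36 measured effectors with a promoter in the table (47.2%) and in 5 of the 7 that were at least 2-fold higher (71.4%). They were found in 3.99% of all 27025 genes with such a window. Of the genes at least 2-fold higher, 11 of 99 held them (11.1%), and these include the 5 effectors. Of those at least 2-fold lower, 4 of 106 held them (3.77%), and of all genes measured on both arrays, 434 of 11527 (3.77%). A match is a description of the letters and not evidence that a factor was bound.

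Effector genes of the interferon response were higher in OSKA cells without 4OHT. Of the 50 listed genes, 46 were above background on both arrays. Of these, 40 were higher (background 47%) and 9 at least 2-fold higher (background 1.09%), none was 2-fold lower, and the median difference was 0.58 against −0.02 for all genes (0.14 against −0.46 under spike-in scaling). With 4OHT, 42 of 47 were higher (background 42.9%), 20 of them at least 2-fold (background 1.92%), and 1 was at least 2-fold lower (background 1.12%), at a median of 0.79. Both OSKA arrays lay above both OSK arrays for 38 of 46 effectors, against 16.2% of all genes. The sum of their linear levels was 412, 485, 435 and 649, so the OSK arrays lay nearest to each other and the OSKA array without 4OHT lay between them and the OSKA array with 4OHT.

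Ifit1, which binds foreign RNA caps, lay at −1.73, −0.22, −1.76 and 0.91, a 2.85-fold difference without 4OHT and 6.36-fold with it. Mx1, a GTPase that blocks viral replication, lay at −3.37, −2.01, −3.57 and −0.52. Rsad2, or viperin, lay at −3.24, −1.92, −3.30 and −0.22. In these genes the OSK arrays lay close to each other, and each OSKA array was more than 2-fold above them. Ifit3, at a brighter −0.40, 0.94, 0.03 and 1.64, differed 2.53-fold without 4OHT. Oasl1, an oligoadenylate synthetase-like inhibitor of Irf7 translation, lay at −2.25, −1.11, −2.21 and 0.49. Ifi27l2a was the brightest effector past 2-fold, at 5.25, 6.31, 5.82 and 6.92, and there the OSK array with 4OHT also stood above the one without. Ifi44, Ifit3b and Slfn8 were the others, with differences of 1.23, 1.08 and 1.04.

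Several effectors stayed short of 2-fold without 4OHT and passed it with 4OHT. Oasl2 differed by 0.92 without and 2.21 with 4OHT, and Usp18, the protease that removes ISG15 from proteins and dampens receptor signalling, by 0.89 and 1.89. Trim30a differed by 0.90 and 1.12. Not every effector was higher. Ifitm1, which blocks viral fusion and was chosen here after its values were seen, lay at 6.03, 5.27, 5.87 and 4.58 and had the most negative difference of the effectors. Oas3, Epsti1, Oas1g and Ifi44l were not above background on both arrays.

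**Figure D2:**
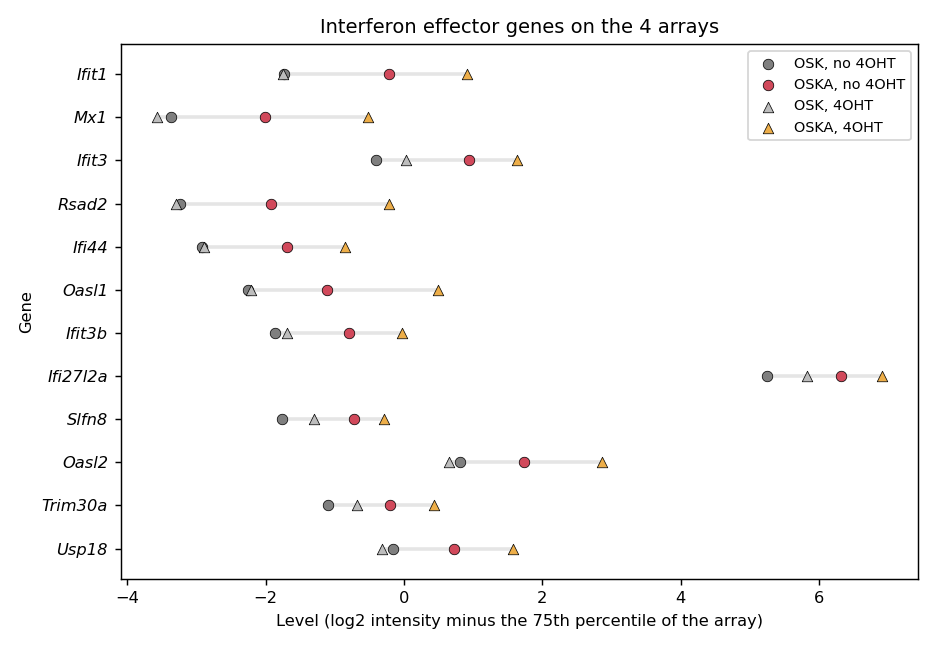
Levels of the 12 interferon effectors with the largest absolute difference without 4OHT, 1 point per array on the log2 scale of the x axis and 1 gene per line. For Ifit1, Mx1, Rsad2, Ifi44 and Oasl1 the OSK points nearly coincide, and the OSKA point without 4OHT lies between them and the OSKA point with 4OHT.

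Among the transcription factors of the pathway, 8 of 11 were higher without 4OHT (background 47%), none by 2-fold, with a median of 0.24 that became −0.20 when the arrays were scaled to spike-in probes. With 4OHT 5 of 11 were higher (background 42.9%), 3 of them by 2-fold (background 1.92%), at a median of −0.07. Irf7, the factor that amplifies the response, lay at −2.03, −1.21, −2.39 and −0.31, and Stat2 at 1.08, 1.79, 1.22 and 2.26. Irf9 differed by 0.24 and Irf3, which starts the response, by −0.13. Irf8 and Irf5, which are abundant in macrophages, differed by 0.65 and 0.71 without 4OHT, and with 4OHT their OSKA level was the lower one.

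Sensors of nucleic acids were higher in 17 of 21 measured genes without 4OHT (background 47%), with a median of 0.39 (−0.06 under spike-in scaling). The OSK array without 4OHT was the lowest of the 4 for 13 of the 21, against 27.1% of all genes. Counts of the lowest array, here and below, are not independent of the difference without 4OHT, which uses the same array. Ifi202b, a DNA-binding protein of the Ifi200 family, had the largest difference, at −2.77, −0.61, −1.31 and −0.60, and its other probe gave 2.37. There the OSK array without 4OHT was the low one, and the OSK array with 4OHT was nearer to the OSKA arrays. Dhx58, a regulator of RNA sensing, lay at −2.03, −0.81, −1.52 and −0.23. The family members Ifi203, Mndal and Ifi204 differed by 0.78, 0.74 and 0.71. The RNA sensor Ifih1 and the DNA sensor Cgas each differed by 0.39 (0.71 for another Cgas probe), and the adaptor Mavs by −0.35. Eif2ak2, the kinase PKR, lay at 0.77, 1.29, 0.77 and 1.61.

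Most transcripts of the interferons themselves were not measured on both arrays. Of 17 ligand genes on the array, 6 were above background on both arrays without 4OHT, all at levels under −1, and their differences lay between −0.16 and 0.52. Ifnb1, the interferon that fibroblasts make first, was above background only on the OSKA array without 4OHT, at −3.52, where it was at least 2.22-fold higher than in OSK cells. Ifna12 and Ifnk were also measured on that array alone, at −3.77 and −3.18. Ifna7 went the other way, at −1.69, −5.09, −3.82 and −4.29, and was at least 9.30-fold lower in OSKA cells without 4OHT. These are dim probes. With 4OHT, 7 ligand genes were measured and 7 were lower in OSKA cells (background 57.1%), at a median of −0.47. The largest of these differences was that of Ifna14, −1.68, against 0.12 without 4OHT. Of the receptors and their kinases, 6 of 8 were higher without 4OHT (background 47%), with a median of 0.11 (−0.34 under spike-in scaling). Ifnar1 and Ifnar2 differed by 0.03 and 0.06.

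The GTPases best known from interferon gamma were higher in 12 of 13 genes (background 47%), with a median of 0.34 (−0.11 under spike-in scaling). Gvin1 differed by 0.91, Gbp6 by 0.75 (−0.46 with 4OHT; 0.38 and 0.60 for another probe), Gbp3 by 0.68 and Gbp2 by 0.57, and none was past 2-fold. Genes of antigen presentation were higher in 15 of 20 (background 47%), with a median of 0.30 (−0.14 under spike-in scaling). Nlrc5, the activator of class I genes, lay at −0.96, −0.05, −0.23 and 0.12, and the immunoproteasome subunits Psmb9 and Psmb8 differed by 0.68 and 0.59. Cellular factors that restrict retroviruses had 7 of 10 genes higher (background 47%) and a median of 0.15, with Trex1 at 0.33. Their median was −0.29 under spike-in scaling. The machinery that silences proviruses had a median of −0.02, with Trim28 at −0.19 and Zfp809 at −0.32. The other probe of Zfp809 gave 0.36.

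Macrophage markers were also higher in OSKA cells without 4OHT. All 13 were above background on every array, and 12 were higher (47% of all genes), none by 2-fold. The median difference was 0.58 (0.14 under spike-in scaling). Csf1r, the receptor for the macrophage growth factor, lay at 5.91, 6.50, 6.51 and 6.33. Cx3cr1 lay at 2.69, 3.49, 3.42 and 3.20, and Adgre1, which encodes F4/80, at 3.63, 4.24, 4.27 and 4.32. The OSK array without 4OHT was thus the lowest and the other 3 were alike. It was the lowest for 12 of 13 markers (92.3%), against 27.1% of all genes. The summed linear level of the list was 290, 408, 423 and 366. With 4OHT only 3 of 13 were higher in OSKA cells (42.9% of all genes), at a median of −0.19. In bulk RNA, fewer cells of a type and less RNA per cell cannot be told apart.

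Some of the genes higher in OSKA cells are known from macrophages or other leukocytes. Ccl4, a chemokine, lay at 2.90, 3.84, 3.86 and 3.19, and Slamf9, a receptor of myeloid cells, at −0.30, 0.89, 0.87 and 1.01, both with the OSK array without 4OHT the lowest. The inflammatory cytokines and their regulators were higher in 17 of 25 genes (background 47%), at a median of 0.35 (−0.09 under spike-in scaling). With 4OHT the median was −0.08. Cxcl10, a chemokine that interferons induce, was past 2-fold, at −1.37, −0.28, −1.05 and 1.06. The OSK array without 4OHT was also the lowest for 47.8% of the interferon effectors, and the OSK array with 4OHT was the lowest for 39.1% of them, against 27.1% and 16.6% of all genes. The summed macrophage level of OSK cells with 4OHT was above that of both OSKA arrays, while the summed effector level of those cells was below both. How much of each difference came with the macrophage markers was not tested.

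Epithelial genes were lower in OSKA cells without 4OHT. Reprogramming fibroblasts take on epithelial features early, but whether these genes follow the course of reprogramming in these cultures was not tested. Of 21 listed genes, 12 were measured, 9 were lower and 3 higher (background 47%), and 4 were at least 2-fold lower (background 0.928%). The median difference was −0.62. The median was −0.24 with no filter on dim probes and −1.06 under spike-in scaling. Krt8, a keratin of simple epithelia, lay at 1.22, −0.01, 0.83 and 0.55, and its other probe gave −1.33. Cdh1, which encodes E-cadherin, lay at −0.81, −1.86, −1.40 and −1.99. Dsp, a desmosome protein, lay at −1.71, −2.88, −2.40 and −1.52, and the claudin Cldn3 at −0.38, −1.39, −0.81 and 0.13. The OSK array with 4OHT lay between the arrays without 4OHT for each of these. With 4OHT the epithelial genes had no common direction, with 7 of 13 higher (background 42.9%) and a median of 0.17. Epcam, an early marker of reprogramming, differed by −0.10 without 4OHT, and Krt18, the partner of Krt8, by 0.27.

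**Figure D3:**
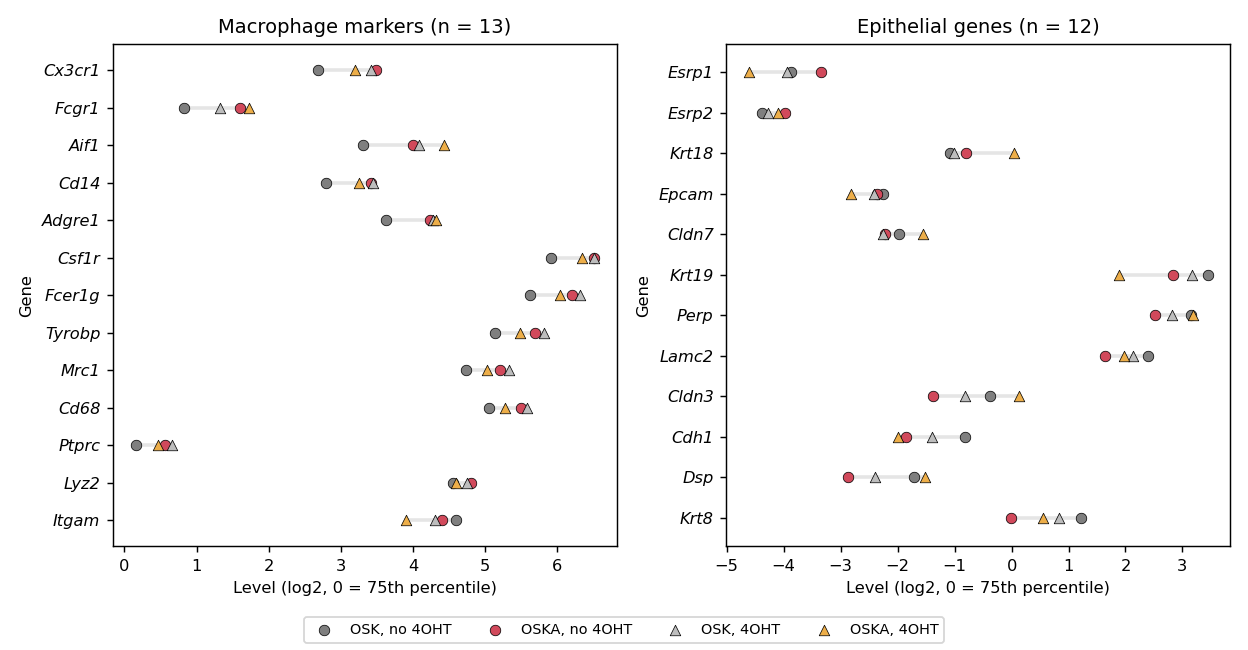
Levels of 13 macrophage markers on the left and 12 epithelial genes on the right, 1 point per array on the log2 scale of the x axis, ordered by OSKA minus OSK without 4OHT. The OSK point without 4OHT is the lowest for 12 of the 13 macrophage markers, and for Krt8, Dsp, Cdh1 and Cldn3 the OSKA point without 4OHT lies at least 2-fold below the OSK point without 4OHT.

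Pluripotency genes were mostly low. Of 32 listed genes, 22 were measured without 4OHT, of which 16 were lower in OSKA cells and 6 higher (background 47%). The median was −0.17. Fbxo15, a target of Oct4 and Sox2, lay at −0.89, −2.29, −1.12 and −0.9996, so the OSKA array without 4OHT was the only low one. Alpl, an early marker, differed by −0.97. Fgf4 was outside the naming rule and is added after its values were seen, at 1.22, 0.25, 0.87 and 0.41. Fut4, which makes the SSEA-1 sugar, differed by 0.99 at a level near background. Both OSKA arrays lay above both OSK arrays for none of the 22, against 16.2% of all genes, and below for 5, against 24.7% of all genes. Genes of keratinocytes had a median of −0.43 without 4OHT over 6 measured genes, and with 4OHT a median of 0.89 over 5.

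Mesenchymal genes, which reprogramming shuts down, were higher in 17 of 24 without 4OHT (background 47%). Their median of 0.21 became −0.23 under spike-in scaling. Postn, a matrix protein, lay at 3.34, 4.14, 3.49 and 4.35, and Cdh2, which encodes N-cadherin, at 2.47, 3.08, 1.98 and 2.96. In both genes the OSKA arrays were the higher pair. Targets of TGF-beta and SRF had the same median, 0.21 (−0.23 under spike-in scaling), with Ankrd1 at 1.25 and the smooth muscle protein Cnn1 at 1.06, and with 4OHT their median was −0.40. Tagln lay at 5.22, 5.97, 5.68 and 4.73, so it was highest in OSKA cells without 4OHT and lowest in OSKA cells with it.

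The genes that AKT activity is known to control gave small median differences without 4OHT, and with 4OHT their medians were small too. Activity of the fusion protein without 4OHT was not tested. Targets of FOXO factors, which active AKT represses, were higher in 15 of 24 (background 47%) with a median of 0.07 (−0.37 under spike-in scaling). With 4OHT 7 of 24 were higher (background 42.9%), at a median of −0.15. The largest difference without 4OHT was that of Foxo4 itself, 1.65 from a dim probe, and its other measured probe gave 0.04. Irs2, a FOXO target in insulin signalling, lay at 4.86, 4.46, 4.84 and 3.43, so the OSKA array without 4OHT stood below both OSK arrays and well above the OSKA array with 4OHT. Sesn3, a stress-induced sestrin and FOXO target, lay at 0.59, 1.21, 0.88 and 1.72, with both OSKA arrays above both OSK arrays. Components of the AKT pathway had a median of −0.03 and lay between −0.58 (Phlpp1, an AKT phosphatase) and 0.96 (Inpp4b, a lipid phosphatase with a dim probe). With 4OHT the median of these components was −0.03 as well. Glycolysis genes, which rise with AKT activity in many cells, had a median of −0.02 without and 0.21 with 4OHT. Estrogen response genes were higher in 7 of 15 without 4OHT (background 47%), between −0.68 (Ltf) and 0.67 (Igf1). Of the sterol synthesis genes 20 of 24 were lower without 4OHT and 4 higher (background 47%), at a median of −0.13. Cyp51 had the most negative value, −0.45. With 4OHT the sterol median was −0.28. Fatty acid synthesis genes had a median of −0.14 without and 0.20 with 4OHT.

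Targets of p53, which acts in stress and growth arrest, were higher in 18 of 21 without 4OHT (background 47%). Their median was 0.27 without 4OHT (−0.18 under spike-in scaling) and 0.31 with it. Both OSKA arrays lay above both OSK arrays for 14 of the 21, against 16.2% of all genes, and the OSK array without 4OHT was the lowest for 71.4%, against 27.1%. Pidd1 differed by 0.64 and Pmaip1, which encodes NOXA, by 0.56, while Perp, which is also a desmosome gene, differed by −0.63. CDK inhibitors were higher in 6 of 7 (background 47%), at a median of 0.32 (−0.13 under spike-in scaling). Cdkn2a lay at 4.10, 4.57, 4.70 and 4.70 and Cdkn1a at 3.52, 3.94, 3.81 and 4.22. Other probes of Cdkn1a gave −0.02 and 0.34. S phase genes were lower in 20 of 26 and higher in 6 (background 47%), at a median of −0.08. For G2 and M phase the median was 0.02 (−0.43 under spike-in scaling).

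Within the unfolded protein response list, the largest differences were in genes of the ATF4 and CHOP branch. Trib3, a pseudokinase that binds AKT and is induced by ATF4 and CHOP, lay at 1.99, 3.21, 2.24 and 3.84, a 2.33-fold difference without 4OHT and 3.04-fold with it. Chac1, a glutathione-degrading enzyme, lay at 1.30, 2.14, 1.56 and 2.64, and Ddit3, which encodes CHOP, at 0.40, 1.05, 0.74 and 1.15. For all 3 genes both OSKA arrays were above both OSK arrays. The median of the 18 listed genes was 0.08 (−0.36 under spike-in scaling), the OSK array without 4OHT was the lowest for 13 of them (27.1% of all genes), and the chaperone Hspa5, named after its values were seen, differed by 0.13.

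Among genes with a symbol, the largest single differences were mostly on dim probes. Crygc, a lens crystallin, was 6.03-fold higher (levels −4.38, −1.79, −4.01 and −4.47), and the OSKA array without 4OHT was the only one of the 4 on which it stood out. The other 2 Crygc probes were above background on no array. Ctnna2, a catenin of neurons, lay at −1.30, 0.88, 0.23 and 0.72, and Dner, a neuronal Notch ligand, differed by 1.97. Rgs4, Hgf and Wt1 differed by 1.82, 1.80 and 1.79. Of the lower genes, Crebrf, a regulator of CREB3 factors, lay at −0.16, −3.01, −3.59 and −4.70, so here the OSK array without 4OHT alone was high. Il12rb1, a cytokine receptor subunit, differed by −2.43, but its other probe was at least 1.07-fold higher. Cox17 and Fyb2 differed by −2.36 and −2.21 on probes that were near or below background on the 3 arrays other than OSK without 4OHT. Prm1, a protamine of sperm, lay at −1.72, −3.82, −2.40 and −3.56, and Aox3 at −2.60, −4.40, −3.77 and −2.95.

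Among genes at or above the 75th percentile, the higher ones were led by Krtap19-5 (1.82), whose other probe gave −0.32. Flt1, a VEGF receptor, lay at 0.78, 2.46, 1.93 and 1.60, and another probe gave 1.95. C1qtnf3, a secreted protein of the C1q and TNF family, lay at 1.01, 2.63, 1.98 and 2.25, and another probe gave 1.11. Pappa, a protease that frees IGF1 from its binding proteins, Capn11, Clca3a1 and Pgm5 differed by 1.28, 1.27, 1.19 and 1.19. Lpl, a lipase of fat cells and macrophages, lay at 2.12, 3.31, 2.99 and 3.32. In Flt1, C1qtnf3, Pappa, Slamf9, Clca3a1, Lpl and Pgm5 the OSK array without 4OHT was the lowest of the 4 and the OSK array with 4OHT was closer to the OSKA arrays. These genes were chosen for a large rise without 4OHT, which by itself favours a low value on that OSK array.

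The bright lower genes were led by Syt10, a calcium sensor of secretion, at 4.29, 2.48, 3.00 and 1.64. Hes5, a Notch target, lay at 3.55, 2.11, 2.63 and 3.29, and the water channel Aqp3 at 3.25, 1.93, 2.63 and 2.65. Tbx2, a T-box repressor, lay at 1.15, −0.04, 0.92 and −0.18, and Cacna2d2, a calcium channel subunit, at 3.78, 2.60, 3.42 and 2.59 with −1.37 for another probe. For Syt10, Tbx2, Cacna2d2, Tmprss5 and Galnt15 both OSKA arrays were below both OSK arrays, and for Myoc, Klk1b5, Lgals7 and Ces1f the OSKA array without 4OHT was the low one of the 4. The choice of these genes by their fall without 4OHT favours a low value on that OSKA array. Of the 33 bright higher genes, 17 had another measured probe, which was higher in 15 and past 2-fold in 10. Of the 30 bright lower genes, 6 had one, which was lower in 6 and past 2-fold in 5.

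**Figure D4:**
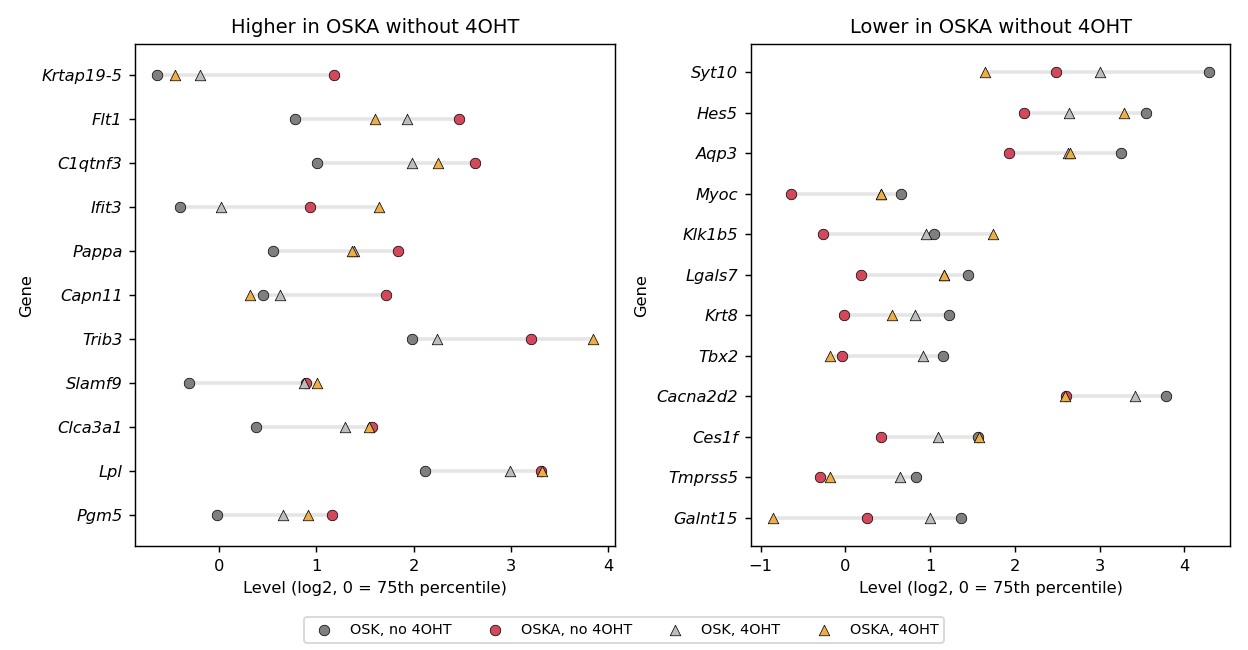
Levels of 11 of the 12 genes with the most positive difference on the left and the 12 with the most negative on the right in OSKA cells without 4OHT, among genes with a symbol and a mean level at or above 0, 1 point per array on a log2 x axis. Trib3 and Ifit3 have both OSKA points above both OSK points, while for Flt1 and Lpl the OSK point without 4OHT stands apart from the other 3.

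Of the other marker lists, adipocyte genes were higher in 5 of 5 (background 47%) at a median of 0.29 (−0.15 under spike-in scaling). Endothelial genes had a median of −0.14, glial genes of −0.12, muscle genes of 0.01, cartilage and bone genes of 0.02 and neuronal genes of 0.15. Under spike-in scaling the medians of muscle, of cartilage and bone and of neuronal genes were −0.44, −0.43 and −0.30. Lens and sperm markers had 2 measured genes each, Crygc and Prm1 among them, and medians of 1.32 and −0.79. None of 7 liver and red cell genes on the array was measured on both arrays without 4OHT. Housekeeping and DNA methylation genes had medians of 0.01 (−0.44 and −0.43 under spike-in scaling), NRF2 targets and the respiratory chain of −0.06 and heat shock genes of −0.04. Ribosomal protein genes were lower in 24 of 26 and higher in 2 (background 47%), at a median of −0.06, none by 2-fold. Both OSKA arrays lay below both OSK arrays for 23 of the 26, against 24.7% of all genes, and with 4OHT the median was −0.33.

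**Figure D5:**
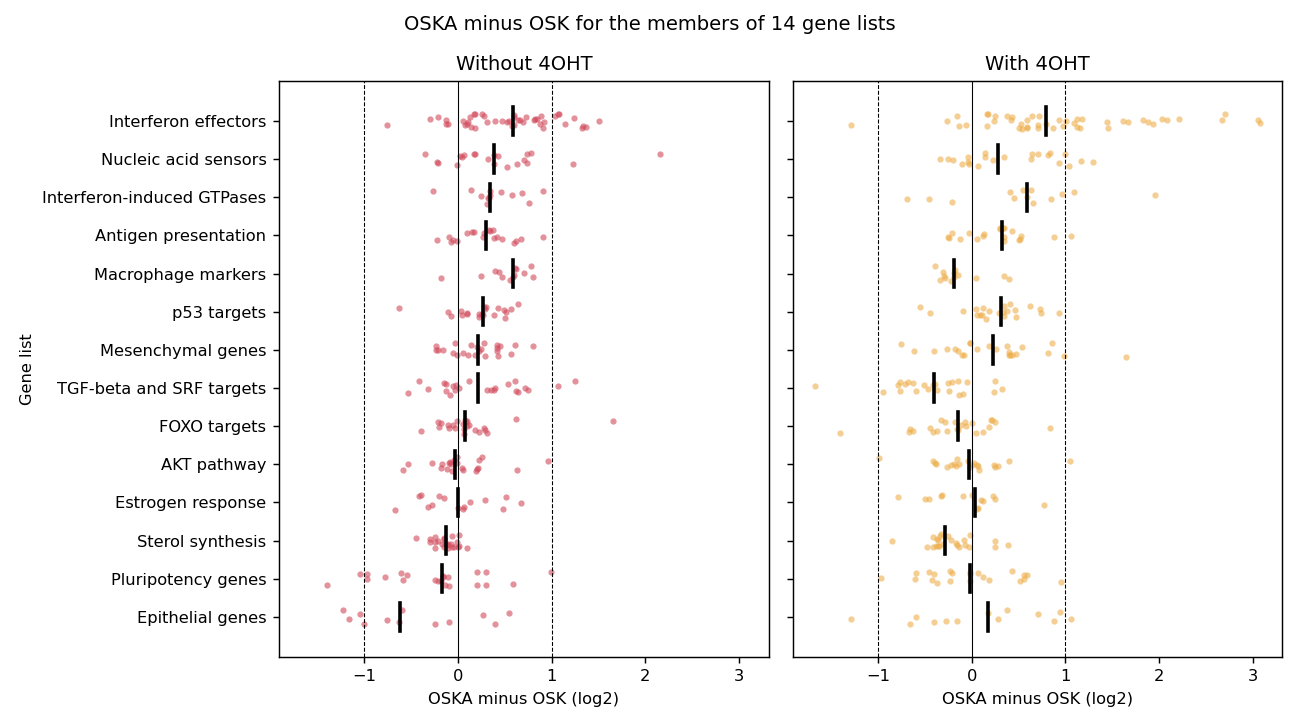
OSKA minus OSK on the log2 scale for the measured members of 14 gene lists, without 4OHT on the left and with 4OHT on the right, 1 point per gene and a black bar at the median of the list. The median of the interferon effectors is above 0 in both panels, that of the macrophage markers only in the left one, and that of the epithelial genes is below 0 only in the left one; under spike-in scaling all points of the left panel shift down alike, and the medians of the other lists above 0 there turn negative.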

How the data were processed

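Cy3-labelled cRNA of each sample was hybridised to 1 Agilent single-channel array, and the 4 arrays shared 1 slide. The deposited files hold a linear intensity per spot, with background and trends removed by Agilent Feature Extraction 10.7.3.1, with no normalization between arrays per the file headers. The deposited series matrix holds the same intensity (ratio 0.995 to 1.005). Here the log2 intensity of each of 59305 non-control spots was reduced by the array's 75th percentile (462, 403, 377 and 383 for OSK and OSKA without, then OSK and OSKA with 4OHT). Marked spots (104 to 155 per array) were left out, none was saturated, and spots were averaged over 55681 probes. Of these, 27598 were named by RefSeq accession, 393 by synonym, and 27690 kept the array's name. A gene was represented by its brightest probe, and the 34758 genes or transcripts included 22456 with a symbol.

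Differences need a signal that the software marked as well above background on each of the arrays compared. Where only 1 had it, the dim array's level was replaced by the lowest marked level there if that was higher, and the result is written "at least N-fold". With 1 array per group no test was run, and the number of arrays limits the precision. Coordinates of probes are NCBI37 (mm9). Named were, among genes with a symbol, the 8 largest rises and falls, the 12 largest of each at a mean level of 0 or more, the transgene-related genes, up to 3 members of each of 45 gene lists (12 for interferon lists) by absolute difference, and 5 bounds each way; 4 genes that the rule names are not reported here. Slc7a1, Csf1r, Adgre1, Ifitm1, Fgf4, Cldn3, Epcam, Krt18, Hspa5, Ifnb1, Ifna12 and Ifnk, the effectors not above background and the genes 2-fold apart in both pairs were added after their values were seen. The members and lists were chosen with earlier results of these data known. The alternatives numbered 9. Software was Python 3.11.15, pandas 2.3.3, numpy 2.4.6, R 4.3.3 and limma 3.58.1, and the steps were tested on simulated data.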

Additional observations from a re-analysis of the deposited data

Results flagged for a closer look

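For 3 gene lists of at least 10 measured members, the median of OSKA minus OSK had opposite signs without and with 4OHT and the medians lay at least 0.5 apart. Macrophage markers had a median of 0.58 without and −0.19 with 4OHT, a gap of 0.78. Epithelial genes had −0.62 and 0.17, a gap of −0.79, and targets of TGF-beta and SRF had 0.21 and −0.40, a gap of 0.61. The median of all genes was −0.02 and −0.05. Each pair has 1 array per group, so these differences were not tested.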

How the results depend on the processing

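Scaling to the spike-in probes moved the median of all genes from −0.02 to −0.46 without 4OHT. It gave 42 genes at least 2-fold higher and 910 lower without 4OHT (4.41% of the changed genes higher, against 54.1%) and 336 lower with 4OHT (46.8% higher against 63.1%). It put the effector median at 0.14 and the Esr1 bound at 7.33 in place of 7.78 (log2). Under it 22 of 24 positive list medians turned negative, among them those of sensors (−0.056), transcription factors (−0.20), interferon-induced GTPases (−0.11), antigen presentation (−0.14), cytokines (−0.092), mesenchymal genes (−0.23), TGF-beta and SRF targets (−0.23), CDK inhibitors (−0.13), p53 targets (−0.18) and adipocyte genes (−0.15). Relative to all genes, the medians were then 0.60 for effectors and macrophage markers and −0.60 for epithelial genes. Normexp with quantile normalization gave 34 higher and 40 lower genes without and 180 and 62 with 4OHT (74.4% higher), and 5.52 for Esr1. With no filter on dim probes the counts were 1467 and 1520 without and 1707 and 1436 with 4OHT, and at 1.5-fold they were 1141 and 803 without and 1082 and 1012 with 4OHT, by construction. The cause of the other shifts was not tested. Of the counts and leading values under all alternatives 31 stayed within 1.5-fold (counts) or the software error of 0.205 (values) and 18 moved, of single genes 1410 and 272, and of list medians 284 and 34, while 10 of at least that error changed sign. No paired analysis was possible because the groups without 4OHT have 1 array each; an additive fit over all 4 arrays, which takes the difference as equal without and with 4OHT, was not run. Dim probes limit most single-gene differences: below a level of −3 the SD over genes was 0.49, and at or above 0 it was 0.26.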
